A study of Mus musculus with 9 samples.

Results

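Metalloproteases of the MMP, ADAM and ADAMTS families and their inhibitors were followed across 4 cell populations of the growing mouse hair follicle. The members are the 85 gene rows, of 46517 in each library's table, whose symbol is an ADAM, ADAMTS, ADAMTS-like or MMP gene with its number, one of Timp1 to Timp4, or Reck. They comprise 17 secreted and 6 membrane-type MMPs and 9 ADAM sheddases and relatives. Adam11, Adam22 and Adam23, which lack a catalytic site, are grouped apart from 21 other ADAMs. The rest are 7 proteoglycan-cleaving, 3 procollagen-processing and 9 other ADAMTS genes, 5 ADAMTS-like genes and 5 inhibitors. RNA was sequenced from cells sorted from back skin at postnatal day 30, in anagen VI, when follicles are fully grown. Hair follicle stem cells (HFSC) gave 3 libraries, and the outer root sheath (ORS), the basal hair bulb (basal HB) and the suprabasal hair bulb (suprabasal HB) gave 2 each. No group was treated, and all 4 carry the same labels for strain, Lhx2-GFP on CD1, and for sex, mixed. The extraction text instead names K14-H2BGFP mice, in which the K14 promoter drives a fluorescent histone, so which reporter gave the GFP gate is not settled by the labels. Cells were gated on CD34, Sca-1, Pcadherin and GFP together with integrin b1 and integrin α6, and the labels do not say how many mice were pooled or whether replicates were separate animals, so p-values measure the spread between these samples.

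Matrix metalloproteases (MMPs) cut collagens and other matrix proteins, and membrane-type MMPs do so at the cell surface. ADAM proteases mostly cut, or shed, other membrane proteins such as growth factor precursors, Notch and cadherins, while ADAMTS proteases are secreted and cut proteoglycans, procollagens and microfibril proteins, and the ADAMTS-like proteins lack the protease part. The secreted TIMP proteins block these enzymes with differing ranges, TIMP3 being the one bound in the matrix and the broadest, and RECK is a membrane-anchored inhibitor. In skin these enzymes act on the basement membrane around the follicle and on the ligands and receptors that follicle cells use.

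Levels are CPM values, which are counts scaled to the library's TMM-normalised total, listed by library in the order of the replicate numbers, and levels are compared between genes only as TPM, which is scaled by transcript length. A comparison is called where the adjusted p of edgeR's quasi-likelihood test is under 0.05, and every SE is that of the log2 fold change. A call given with its fold change and no further p kept its direction and stayed under the threshold in all 18 alternative analyses. Total counts ran from 25098237 to 29902799 in HFSC and from 45438637 to 88596741 in the other 6 libraries. Cd34, a marker of the HFSC gate, was at 412, 381 and 344 CPM in HFSC and no higher than 80.7 CPM elsewhere. The 7 listed stem cell genes, Cd34 among them, summed to 4946 to 5473 CPM in HFSC and 4874 to 5993 in ORS, which overlap. In the bulb they summed to at most 1216 CPM. The 6 outer root sheath and basal keratinocyte genes were highest in HFSC by their sum, at 9371 to 11689 CPM, against 3415 to 4083 in ORS. Lef1, a hair matrix gene, was at 268 and 240.1 CPM in basal HB and 311 and 329 CPM in suprabasal HB, against at most 98.8 elsewhere. The 6 hair matrix genes differed less by their sum, at 2233 to 2246 CPM in basal HB and 1997 to 2150 in suprabasal HB. That sum was 1851 to 1893 CPM in ORS and 720 to 888 in HFSC. Melanocyte genes, 10 listed, summed to 16641 and 17023 CPM in suprabasal HB, 3921 to 4231 in basal HB and 144 to 488 in the other 5 libraries. Transcripts of the sex chromosomes differed between libraries that are all labelled as mixed. Ddx3y, of the Y chromosome, had 0, 0 and 1 counts in HFSC and 4300 to 6304 in the others, and Xist had 75 counts in ORS replicate 1 and 65 and 47 in suprabasal HB, against 20063 to 130611 in the rest. Population, depth and the sex of the cells therefore cannot be told apart in comparisons with HFSC, nor population and sex in suprabasal HB against basal HB.

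Of the 85 members, 57 passed the filter on low counts and were tested, 13 had no count in any library and 15 had too few. A count of 0 in a library allows up to 0.0339 to 0.12 CPM, which covers counting error only. The untested members were mostly ADAMs known from testis, such as Adam2 and Adam26a, and the MMPs of the collagenase and stromelysin cluster. That cluster spans 10 members on chr9:7272514-7699585, of which Mmp12, Mmp3 and Mmp27 were tested and Mmp1a, Mmp1b and Mmp7 had no count. Among tested members, Adam1a shared 78.7% and Adam4 40.1% of their 25-base words with transcripts of other genes, so their values are uncertain. Mmp3 shared 17.8% with other genes in the same way. Whether reads were counted by strand is not given in the sources used here. Reads from Timp3 and Syn3, which overlap on opposite strands over 21.3% of Timp3 exon bases, could therefore be mixed. So could those of Adam15 over 20.6%, Mmp19 over 28.3%, Mmp28 and Adamts9 each over 12%, Adamts8 over 10.6% and Adam19 over 10.1% of exon bases.

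By transcript level the inhibitors outweighed the proteases in the upper follicle and not in the bulb. Timp1 to Timp4 summed to 1264, 988 and 1116 TPM in HFSC, 736 and 1116 TPM in ORS, 225 and 276 TPM in basal HB, and 75.7 and 51.1 TPM in suprabasal HB. The 3 HFSC libraries and the second ORS library were the highest, and the suprabasal HB libraries lay below every other. Membrane-type MMPs summed to 233 to 335 TPM in HFSC and to 120 and 91.2 in suprabasal HB, mostly through Mmp14. Mmp14 alone was at 324, 224 and 269 TPM in HFSC and 101 and 75.3 in suprabasal HB. Of the 4 tested genes of this class, 2 were higher and 2 lower in suprabasal HB than in HFSC, against 25.2% and 26.3% of all genes. The sum of the ADAM sheddases rose instead, from 142 to 154 TPM in HFSC to 268 and 213 in suprabasal HB, mostly through Adam10. Adam10 alone was at 50.3, 49.7 and 47.1 TPM in HFSC and 163 and 135 in suprabasal HB. Of the 9 sheddases and relatives, 1 was higher and 3 were lower in suprabasal HB than in HFSC, set against the same shares of all genes. Secreted MMPs were lowest in ORS, at 16.2 and 13.5 TPM, and reached 60.7 and 52.8 in basal HB. Proteoglycan-cleaving ADAMTS genes summed to 99.4 to 131 TPM in HFSC and to 31.5 and 20.6 in suprabasal HB. In bulk RNA, fewer cells of a type and less RNA per cell cannot be told apart, here or in any comparison that follows.

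**Figure D1:**
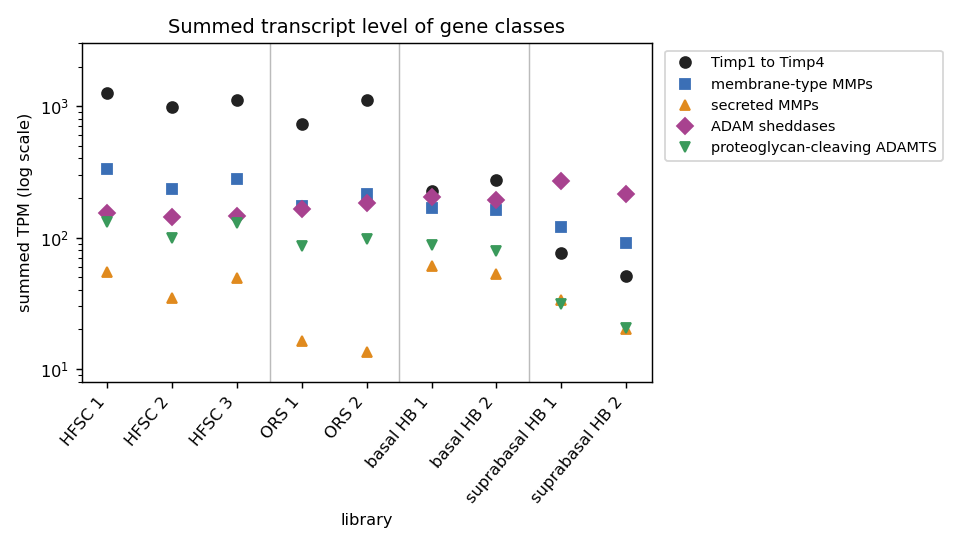
Summed TPM (log scale) of 5 gene classes in each of the 9 libraries. Each point is 1 library, and Timp1 to Timp4 fall from 988 to 1264 TPM in HFSC to 51.1 and 75.7 TPM in suprabasal HB, where they lie under the ADAM sheddases.

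Members were called in each of the 6 comparisons between populations. ORS had 3 members higher and 26 lower than HFSC, 29 of 57 tested, where 41.9% of all 20491 genes tested were called (18.1% higher, 23.8% lower). Adamts9 was the largest of the higher members, and Mmp2, Adamts19, Timp1 and Mmp11 were among the lowest. In basal HB, 25 members were higher and 6 lower than in ORS, against 30.5% of all genes called (15.8% higher, 14.7% lower). Mmp28, Adamts8, Timp4, Adamts16 and Mmp16 had the largest increases and Timp3 the largest decrease. Adamts16, under 1 CPM in every library, had adjusted p = 0.0571 without ORS replicate 2. Against HFSC, basal HB had 18 members higher and 19 lower, against 48.9% of all genes (22.8% higher, 26.1% lower).

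Suprabasal HB had 2 members higher, Adam10 and Mmp16, and 29 lower than basal HB, where 27.9% of all genes were called (13.1% higher, 14.8% lower). The mitochondrial share of counts was 4.36% in each suprabasal HB library, where the other 7 had 2.28% to 2.89%, and the part of this in the members' changes was not tested. Against ORS it had 8 higher and 12 lower, with 29.4% of all genes called (14.3% higher, 15.1% lower). Against HFSC it had 7 higher and 25 lower, with 51.5% of all genes called (25.2% higher, 26.3% lower). The median log2 change over the tested members was −0.81 for ORS against HFSC, 0.85 for basal HB against ORS and −0.80 between the suprabasal and basal HB. Over all genes tested those medians were −0.05, −0.04 and 0. Called members made up 50.9% of those tested in ORS against HFSC, 54.4% in basal HB against ORS, 64.9% in basal HB against HFSC and 54.4% in suprabasal HB against basal HB, each above its background share. In suprabasal HB against ORS, 35.1%, and against HFSC, 56.1%, they were near it. The share stayed above the background in all 18 alternatives for basal HB against ORS and for suprabasal HB against basal HB, and not in the others. For ORS against HFSC it fell below on TPM, with 20 of 57 members against 42.7% of all genes at a pseudocount of 1 and 18 of 57 against 42.4% at 0.1, and was level without ORS replicate 2, with 18 of 58 against 30.8%. For basal HB against HFSC it was 29 of 57 against 52.7% on TPM with a pseudocount of 0.1. Set against HFSC, suprabasal HB had 20 of 57 against 49.1% on TPM with a pseudocount of 1 and 22 of 57 against 49.7% at 0.1. It was also below with upper-quartile scaling (28 of 57 against 52.9%) and a filter of 50 counts in 2 libraries (31 of 54 against 58.1%). The same held without HFSC replicate 1 (25 of 57 against 48%) or 3 (25 of 57 against 48.4%). Set against ORS, suprabasal HB had 16 of 57 against 28.6% on TPM with a pseudocount of 1. These 6 comparisons share libraries, so their counts are not independent. TPM, which is not scaled by TMM, moved the median of all genes by 0.30 for ORS and 0.33 for basal HB, both set against HFSC, and for suprabasal HB by −0.25 against basal HB and −0.20 against ORS, with a pseudocount of 1. The share of all calls that were higher then went from 43.2% to 68.5%, from 46.7% to 72.5%, from 46.8% to 20.5% and from 48.6% to 31.3%. With that scaling the members' calls were 4 higher and 16 lower for ORS and 22 higher and 11 lower for basal HB, each set against HFSC, and 5 higher and 11 lower for suprabasal HB against ORS.

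Each count rests on few libraries. In every setting named next, the share of all genes called was also lower than with all 9 libraries. Without ORS replicate 2, 18 members were called for ORS against HFSC and 20 between basal HB and ORS, and without basal HB replicate 1 or 2 the second of these was 18 or 20. For suprabasal HB against basal HB the counts were 16 without basal HB replicate 1, 14 without basal HB replicate 2 and 20 without suprabasal HB replicate 2. Of the 180 calls of a member in a comparison, 97 were kept under all 18 alternatives.

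**Figure D2:**
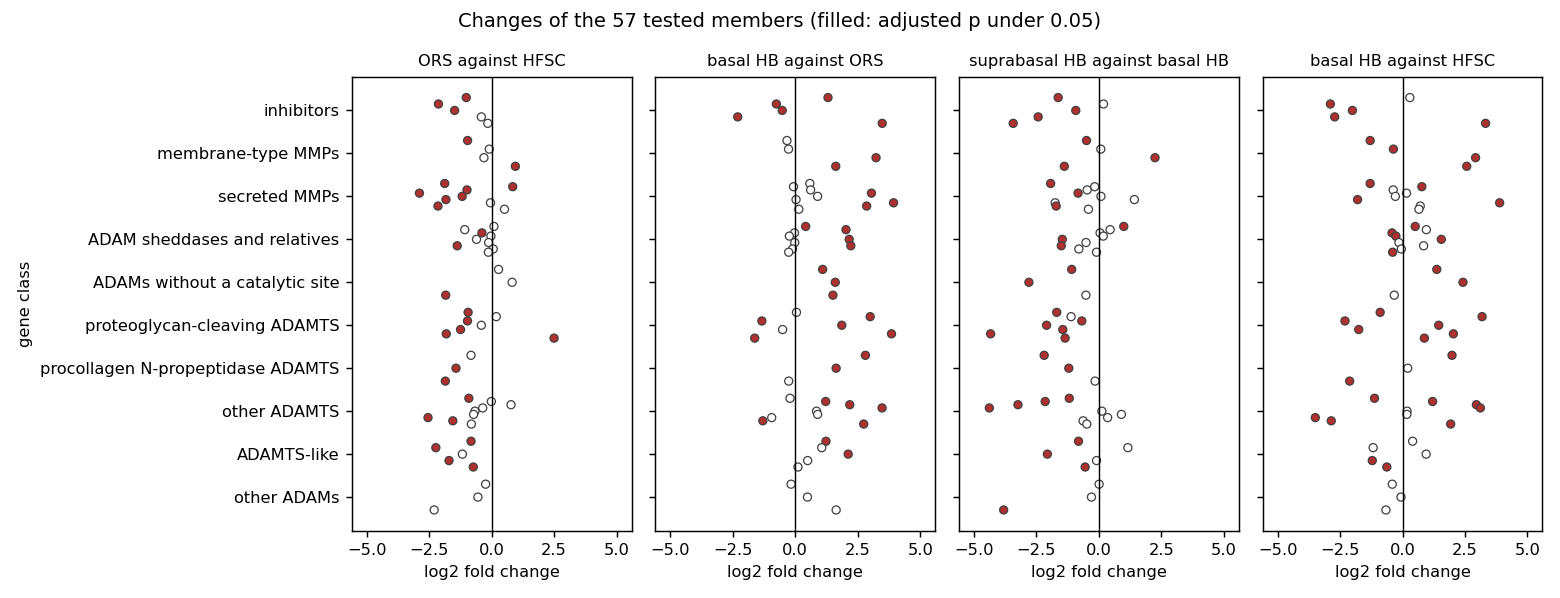
Log2 fold changes of the 57 tested members (x axis), by gene class (y axis), in 4 of the 6 comparisons, with 1 point per gene and filled points for adjusted p under 0.05. Filled points lie mostly left of 0 in ORS against HFSC (26 lower, 3 higher) and in suprabasal HB against basal HB (29 lower, 2 higher), and right of 0 in basal HB against ORS (25 higher, 6 lower).

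Taking the populations all at once, 14 of 57 tested members (24.6%) were higher in HFSC than in each of the other 3, against 14.3% of all genes tested. They were Timp1, Timp2, Mmp11, Mmp14, Adam15, Adamts1, Adamts3, Adamts5, Adamts6, Adamts10, Adamts19, Adamts20, Adamtsl4 and Adamtsl5. This count was 10 when HFSC replicate 3 was left out. On TPM it was 9 with a pseudocount of 1 and 8 at 0.1, and the share of all genes was not computed there. Adam15 was not highest in HFSC as TPM, with means of 39.4 in HFSC, 40.3 in ORS and 39.1 in basal HB. Endothelial and blood markers, 8 genes, were also highest in HFSC by their sum, at 111 to 147 CPM against 42.5 to 83.8 in the other 6 libraries. Of the 8, 4 were lower in ORS than in HFSC, where 23.8% of all genes were lower. Mural and smooth muscle markers, 9 genes, overlapped between HFSC, at 2008 to 2742 CPM, and basal HB, at 1801 and 2038 CPM. The part of such cells in the HFSC levels was not tested. Another 11 (19.3%) were highest in basal HB, against 5.33% of all genes: Timp4, Mmp17, Adam11, Adam19, Adam22, Adamts4, Adamts8, Adamts12, Adamts13, Adamts14 and Adamts16. This count was 7 when ORS replicate 2 was left out, 3 when basal HB replicate 1 was and 4 when basal HB replicate 2 was. Adamts9 alone was highest in ORS (2.34% of all genes), and Adam10 and Mmp16 in suprabasal HB (4.74%). At the other end, 8 members (14%) were lower in suprabasal HB than in each other population, against 6.17% of all genes: Timp2, Timp3, Mmp11, Mmp14, Adamts1, Adamts5, Adamts10 and Adamts20, a count of 5 without basal HB replicate 2. Mmp12 and Mmp17 were lowest in HFSC (8.89%) and Mmp2 in ORS (2.47%).

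**Figure D3:**
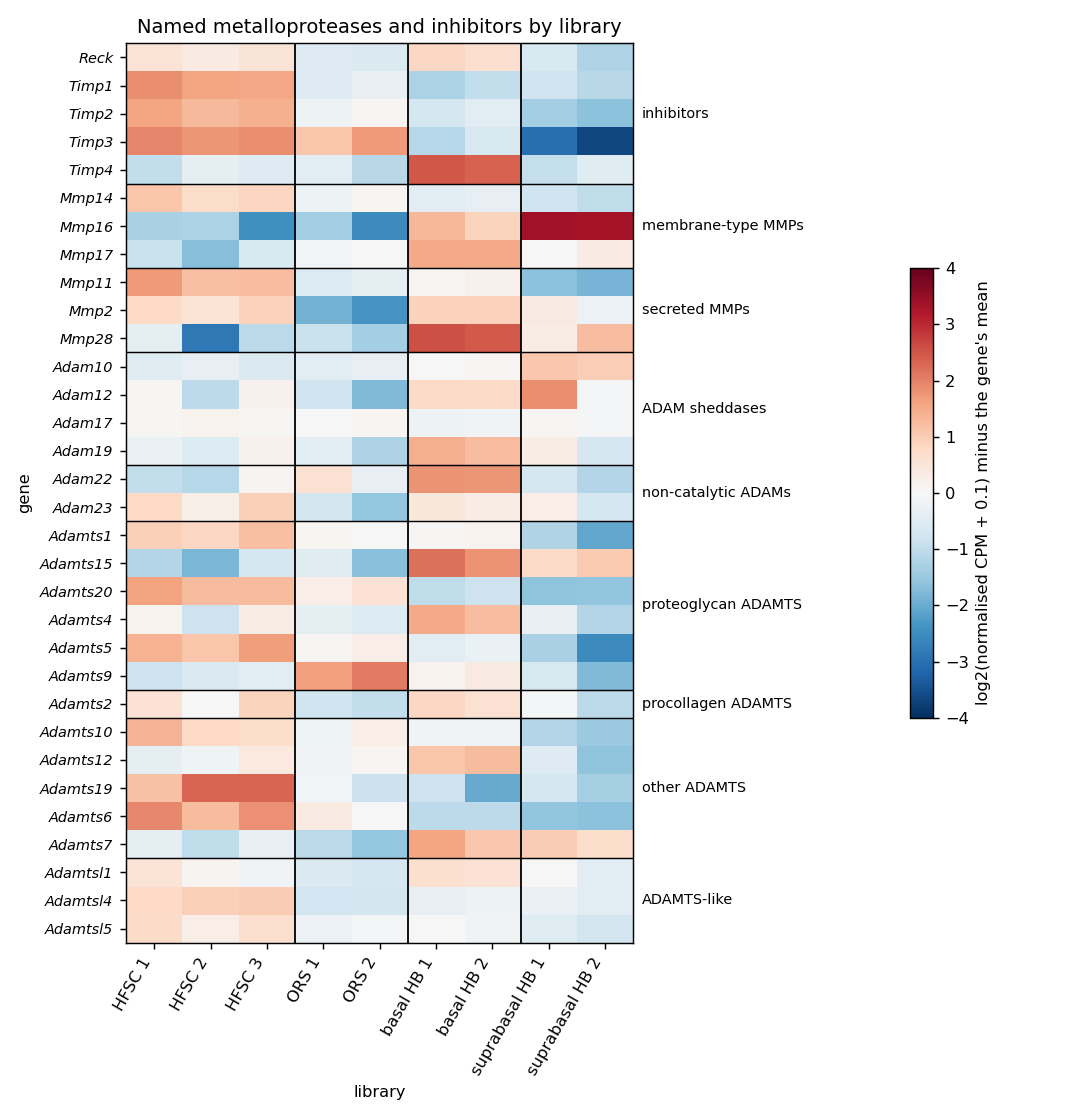
Each row is 1 of the 32 named members, each column 1 library, and the colour is log2(normalised CPM + 0.1) minus the row's mean over the 9 libraries. Rows are grouped by class, and the HFSC libraries are red for Timp1 to Timp3, Mmp11, Mmp14 and Adamts20, basal HB for Timp4, Mmp28 and Adamts15, and suprabasal HB for Mmp16 and Adam10.

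Upstream sequence is shown for 1 member of each of the 4 high patterns, to set members that move apart beside each other: Timp1 (highest in HFSC), Adamts9 (ORS), Timp4 (basal HB) and Adam10 (suprabasal HB). Each run is the 250 bases before the RefSeq start in GRCm38.p6, on the gene's strand, lies in no GENCODE M21 exon, and has the GC box GGGCGG, on either strand and with overlapping matches, in capitals. The windows are chrX:20869916-20870165, forward strand, for Timp1, chr6:92943535-92943784, reverse strand, for Adamts9, chr6:115252206-115252455, reverse strand, for Timp4 and chr9:70678732-70678981, forward strand, for Adam10.
Timp1: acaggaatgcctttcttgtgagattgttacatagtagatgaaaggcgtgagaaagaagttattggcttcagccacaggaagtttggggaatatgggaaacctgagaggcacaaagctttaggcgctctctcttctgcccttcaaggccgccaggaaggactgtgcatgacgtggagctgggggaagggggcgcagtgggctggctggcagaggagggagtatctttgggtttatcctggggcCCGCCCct
Adamts9: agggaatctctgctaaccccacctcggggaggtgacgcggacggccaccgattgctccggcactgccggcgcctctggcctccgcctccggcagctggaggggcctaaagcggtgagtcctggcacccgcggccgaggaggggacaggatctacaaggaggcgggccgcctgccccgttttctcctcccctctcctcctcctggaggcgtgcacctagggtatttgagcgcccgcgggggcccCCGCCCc
Timp4: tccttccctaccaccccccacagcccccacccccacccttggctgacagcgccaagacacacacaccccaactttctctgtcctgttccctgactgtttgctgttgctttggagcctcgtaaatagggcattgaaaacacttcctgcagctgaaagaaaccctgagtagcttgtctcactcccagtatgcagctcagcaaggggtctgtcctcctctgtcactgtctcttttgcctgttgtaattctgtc
Adam10: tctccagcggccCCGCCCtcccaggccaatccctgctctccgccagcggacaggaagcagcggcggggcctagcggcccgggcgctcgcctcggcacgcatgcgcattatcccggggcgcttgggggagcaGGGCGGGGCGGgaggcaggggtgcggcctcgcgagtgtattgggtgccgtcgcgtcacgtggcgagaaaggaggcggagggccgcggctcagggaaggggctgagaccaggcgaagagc

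The Adam10 window held 3 GC boxes, of which a pair overlaps by 1 base, those of Timp1 and Adamts9 1 each and that of Timp4 none. CpG dinucleotides numbered 29 in the Adam10 window, 22 for Adamts9, 6 for Timp1 and 2 for Timp4, against a median of 6 over 32851 RefSeq promoters of the same length. Of 35 tested members with an entry in the RefSeq promoter table, 23 held a GC box, which 32.7% of all promoters hold. Among the untested members with an entry, only Mmp24 and Mmp25 held one. The members here and below are counted by gene and had passed the filter on low counts. All promoters are counted singly, whether or not their gene was expressed, so these shares are not of like sets. The letters TGANTCA, the site known for AP-1, were in 3 of the 35 and in 6.7% of all, TATAAA was in 3 and 12.4%, and CTTTGA, a TCF/LEF core, was in 2 and 13.8%, each searched on both strands. None of these motifs contains another, and a match is a description of the sequence only.

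Among the inhibitors, Timp3 and Timp2 were high in HFSC and lower in both bulb populations, Timp1 was highest in HFSC, and Timp4 was high in basal HB. All 5 genes were tested. Timp3 (chr10:86300372-86349506, forward strand) encodes the matrix-bound inhibitor and stood at 2949, 2591 and 2748 CPM in HFSC, 1647 and 2502 CPM in ORS, 342 and 498 CPM in basal HB and 94 and 61.4 CPM in suprabasal HB. HFSC and ORS lay far above both bulb populations, and no bulb library reached an upper-follicle one. The means were 2763 ± 179.5 CPM (SD, n = 3) in HFSC, 2075 ± 604 CPM (SD, n = 2) in ORS, 420.0 ± 109.9 CPM (SD, n = 2) in basal HB and 77.7 ± 23 CPM (SD, n = 2) in suprabasal HB. Timp3 was 4.94-fold lower (SE 0.28, adjusted p = 0.000522) in basal HB than in ORS and 5.4-fold lower (SE 0.28, adjusted p = 0.000495) in suprabasal HB than in basal HB. From HFSC to suprabasal HB the difference was 35.5-fold (adjusted p = 3.39e-06). ORS was 1.33-fold lower (SE 0.25, adjusted p = 0.211) than HFSC, which did not pass the test, and its second library lay close to the HFSC values. Timp3 gave 75.4% to 76.7% of the summed Timp TPM in HFSC, 86.8% and 89.1% for ORS, 65.3% and 69.7% for basal HB, and 44.7% and 38% for suprabasal HB.

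Timp2 (chr11:118301069-118355740, reverse strand) encodes the inhibitor that also helps MMP14 to activate MMP2, and read 645, 539 and 578 CPM for HFSC, 188 and 232 for ORS, 133 and 159 for basal HB and 84 and 69.7 for suprabasal HB. The 4 populations did not overlap and descended in that order. It was 2.8-fold lower (SE 0.15, adjusted p = 0.000151) in ORS than in HFSC and 1.9-fold lower (SE 0.16, adjusted p = 0.00322) in suprabasal HB than in basal HB. The step between ORS and basal HB was smaller, 1.44-fold lower (SE 0.16, adjusted p = 0.0339), with adjusted p = 0.0925 on TPM with limma and a pseudocount of 1, 0.0972 on TPM with limma and a pseudocount of 0.1, 0.0756 with a replicate block, 0.0675 with HFSC replicate 3 left out, 0.2 with ORS replicate 2 left out, 0.227 with basal HB replicate 1 left out and 0.0543 with basal HB replicate 2 left out. Timp1, an inhibitor of most secreted MMPs, had 9.83, 8.11 and 7.96 CPM in the HFSC libraries, 1.8 and 2.13 in those of ORS, 1.05 and 1.28 in those of basal HB and 1.47 and 1.16 in those of suprabasal HB. Every HFSC library was above every other library, and Timp1 was 4.38-fold lower (SE 0.22, adjusted p = 0.000169) in ORS and 7.41-fold lower (SE 0.23, adjusted p = 2.58e-05) in basal HB than in HFSC. In the other 6 libraries it stayed between 1.05 and 2.13 CPM.

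Timp4 (chr6:115241892-115252205, reverse strand), a TIMP known from heart and vessels, was at a low level, with 0.29, 0.487 and 0.436 CPM in HFSC, 0.472 and 0.257 CPM in ORS, 4.23 and 3.85 CPM in basal HB and 0.302 and 0.448 CPM in suprabasal HB. Both basal HB libraries stood apart from all others, while the other 7 stayed under 0.5 CPM. It was 11.1-fold higher (SE 0.38, adjusted p = 0.000326) in basal HB than in ORS and 10.8-fold lower (SE 0.39, adjusted p = 0.000444) in suprabasal HB than in basal HB. Reck, the membrane-anchored inhibitor of MMP2 and MMP14, had 13.8, 12 and 13.6 CPM for HFSC, 6.66 and 6.3 for ORS, 16.9 and 15.2 for basal HB and 6.24 and 4.1 for suprabasal HB. HFSC and basal HB were high and ORS and suprabasal HB low, with no overlap between these pairs. Reck was 2.48-fold higher (SE 0.20, adjusted p = 0.00159) in basal HB than in ORS and 3.1-fold lower (SE 0.21, adjusted p = 0.000716) in suprabasal HB than in basal HB. In ORS it was 2.02-fold lower (SE 0.19, adjusted p = 0.00296) than in HFSC, with adjusted p = 0.0843 on TPM with limma and a pseudocount of 1 and 0.0974 on TPM with limma and a pseudocount of 0.1.

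**Figure D4:**
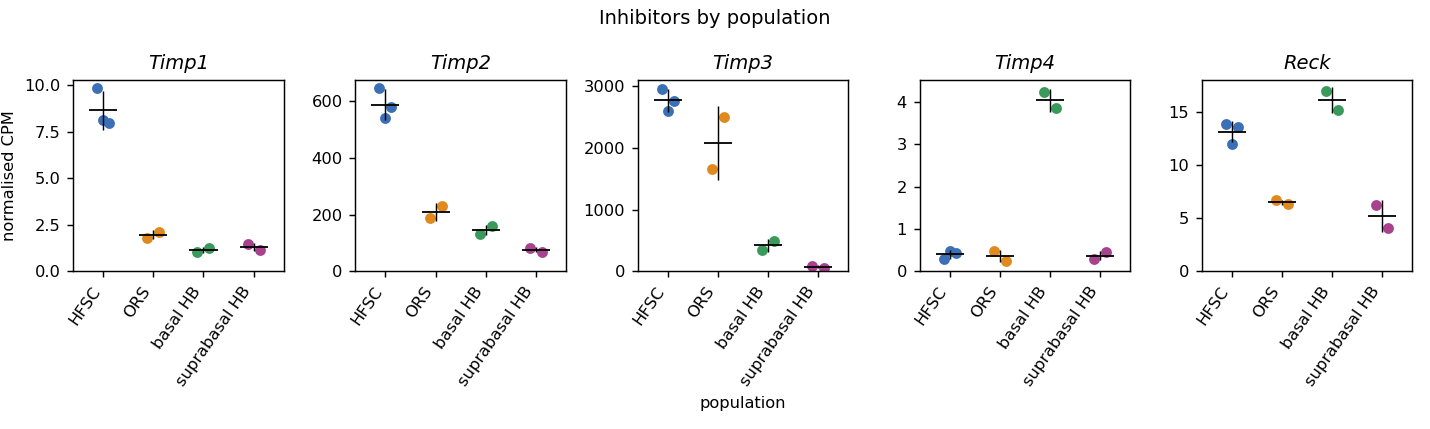
Normalised CPM (y axis, from 0, own scale per gene) of the 5 inhibitors in each library, by population. Points are libraries, horizontal bars are means and vertical bars the SD (HFSC n = 3, others n = 2). The mean is highest in HFSC for Timp1 to Timp3 and in basal HB for Timp4 and Reck. Timp3 did not pass the test between ORS and HFSC, nor did Reck between basal HB and HFSC.

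The membrane-type MMPs divided into Mmp14, which was abundant and highest in HFSC, and Mmp16 and Mmp17, which were higher in the bulb. Mmp14 (chr14:54431612-54445364, forward strand) encodes MT1-MMP, a cell-surface collagenase that activates MMP2, and stood at 535, 414 and 458 CPM in the HFSC libraries, 216 and 265 in those of ORS, 182 and 199 in those of basal HB and 146 and 125 in those of suprabasal HB. It descended in the order HFSC, ORS, basal HB and suprabasal HB with no overlap between populations. The level was 1.95-fold lower (SE 0.15, adjusted p = 0.00103) in ORS and 3.47-fold lower (SE 0.15, adjusted p = 1.93e-05) in suprabasal HB than in HFSC. Between neighbours in the bulb it was 1.41-fold lower (SE 0.16, adjusted p = 0.0429) in suprabasal HB than in basal HB, with adjusted p = 0.0852 with a replicate block, 0.112 with basal HB replicate 1 left out, 0.188 with basal HB replicate 2 left out, 0.0589 with suprabasal HB replicate 1 left out and 0.172 with suprabasal HB replicate 2 left out. Basal HB was 1.26-fold lower (SE 0.15, adjusted p = 0.144) than ORS, which did not pass the test. As TPM, Mmp14 was the most abundant protease of the list in HFSC, at 324, 224 and 269, and still at 101 and 75.3 in suprabasal HB, where Adam10 passed it at 163 and 135.

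Mmp16 (chr4:17852893-18119145, forward strand) encodes MT3-MMP, a relative of MT1-MMP, and had 0.689, 0.709 and 0.254 CPM in HFSC, 0.664 and 0.235 CPM in ORS, 4.79 and 3.51 CPM in basal HB and 20.1 and 19.3 CPM in suprabasal HB. The 5 HFSC and ORS libraries were all below 1 CPM, both suprabasal HB libraries were the highest, and basal HB lay between without overlap. Mmp16 was 9.4-fold higher (SE 0.49, adjusted p = 0.00142) in basal HB than in ORS and 44.6-fold higher (SE 0.52, adjusted p = 0.000103) in suprabasal HB than in ORS. From basal HB to suprabasal HB it was 4.74-fold higher (SE 0.44, adjusted p = 0.00613), with adjusted p = 0.0794 on TPM with limma and a pseudocount of 0.1 and 0.063 with basal HB replicate 2 left out. Mmp17, a membrane-type MMP held by a lipid anchor, peaked instead in basal HB, with 2.21, 1.2 and 2.69 CPM for HFSC, 3.84 and 4.07 for ORS, 12.1 and 12.2 for basal HB and 4.11 and 5.19 for suprabasal HB. It was 3.07-fold higher (SE 0.30, adjusted p = 0.00405) there than in ORS, and suprabasal HB was 2.61-fold lower (SE 0.30, adjusted p = 0.0102) than basal HB, with adjusted p = 0.0594 with basal HB replicate 1 left out, 0.0556 with basal HB replicate 2 left out and 0.06 with suprabasal HB replicate 1 left out. Mmp15, another membrane-type MMP, stayed between 19.5 and 26.5 CPM in all 9 libraries.

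Among 17 secreted MMPs, 9 were tested, and their profiles differed, with Mmp2 low in ORS, Mmp11 high in HFSC and Mmp28 high in basal HB. Mmp2 (chr8:92827291-92853420, forward strand) encodes gelatinase A, which cuts basement membrane collagen, and had 45.6, 38.1 and 49.7 CPM in the HFSC libraries, 6.97 and 5.05 in those of ORS, 49.5 and 49.7 in those of basal HB and 33.6 and 21.9 in those of suprabasal HB. ORS was low and stood apart from the other 3 populations, each of whose libraries exceeded 20 CPM. Mmp2 was 7.42-fold lower (SE 0.23, adjusted p = 5.78e-05) in ORS than in HFSC and 8.28-fold higher (SE 0.24, adjusted p = 0.000105) in basal HB than in ORS. HFSC and basal HB overlapped, and basal HB was 1.12-fold higher (SE 0.20, adjusted p = 0.534), which did not pass the test. In suprabasal HB it was 4.64-fold higher (SE 0.23, adjusted p = 0.000158) than in ORS. Dermal fibroblast and papilla markers, 14 genes known from the dermis, were lower in ORS than in HFSC for 8, against 23.8% of all genes. In basal HB 9 of these markers were higher than in ORS, against 15.8% of all genes. Their sum was 2469 to 3828 CPM in HFSC, 1854 and 1160 CPM in ORS, 2658 and 2349 CPM in basal HB and 4589 and 2156 CPM in suprabasal HB, none of them at 0, and their part in the Mmp2 result was not tested.

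Mmp11, stromelysin 3, had 17.3, 12.4 and 12.6 CPM in HFSC, 3.59 and 4.06 CPM in ORS, 5.5 and 5.95 CPM in basal HB and 1.6 and 1.39 CPM in suprabasal HB. HFSC was highest and suprabasal HB lowest without overlap, at 3.68-fold lower (SE 0.20, adjusted p = 0.000194) in ORS than in HFSC and 3.82-fold lower (SE 0.22, adjusted p = 0.00046) in suprabasal HB than in basal HB. Mmp28, epilysin, an MMP known from keratinocytes, had 0.725, 0.0443 and 0.400 CPM for HFSC, 0.472 and 0.313 for ORS, 6.27 and 5.7 for basal HB and 1.19 and 2.37 for suprabasal HB. All 5 HFSC and ORS libraries were below 1 CPM, and it was 15.3-fold higher (SE 0.66, adjusted p = 0.0024) in basal HB than in ORS. Suprabasal HB was 3.37-fold lower (SE 0.60, adjusted p = 0.0579) than basal HB, which did not pass the test although the libraries did not overlap. Mmp3, stromelysin 1, ran from 0.514 CPM in ORS to 5.38 in basal HB, where it was 7.24-fold higher (SE 0.53, adjusted p = 0.00393) than in ORS. The remaining tested secreted MMPs, Mmp9, Mmp12, Mmp19, Mmp23 and Mmp27, stayed under 8 CPM in every library, and none of their calls was kept under all alternatives.

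Among the ADAM sheddases and their relatives, 2 of 9 were called in ORS against HFSC, where 41.9% of all genes were, and 4 of 9 in basal HB against ORS, where 30.5% were. Adam10 (chr9:70678997-70780229, forward strand) encodes the protease that cleaves Notch receptors after ligand binding, and stood at 146, 165 and 137 CPM in the HFSC libraries, 153 and 165 in those of ORS, 209 and 215 in those of basal HB and 435 and 410.0 in those of suprabasal HB. Both suprabasal HB libraries lay far above every other library, and HFSC and ORS overlapped. Adam10 was 1.99-fold higher (SE 0.11, adjusted p = 0.000397) in suprabasal HB than in basal HB, 2.65-fold higher (SE 0.11, adjusted p = 4.10e-05) than in ORS and 2.83-fold higher (SE 0.10, adjusted p = 5.24e-06) than in HFSC. Basal HB was also 1.42-fold higher (SE 0.10, adjusted p = 0.00298) than HFSC, and 1.33-fold higher (SE 0.11, adjusted p = 0.0201) than ORS, with adjusted p = 0.101 with ORS replicate 1 left out, 0.052 with ORS replicate 2 left out, 0.0863 with basal HB replicate 1 left out and 0.103 with basal HB replicate 2 left out. Adam17, the sheddase of TNF and of EGF family ligands, had 82.1, 87.5 and 81.6 CPM in HFSC, 79.9 and 84 CPM in ORS, 68 and 71 CPM in basal HB and 83 and 73.9 CPM in suprabasal HB. Its whole range was narrow, and the only call was basal HB at 1.2-fold lower (SE 0.08, adjusted p = 0.0247) than HFSC, a difference that turned to a log2 change of 0.16 or 0.17 on TPM. That call was lost under 11 alternatives, among them leaving out any HFSC or basal HB library or suprabasal HB replicate 2 (adjusted p = 0.0821 to 0.351).

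Adam9 and Adam15, further widely expressed sheddases, were also near level. Adam9 ran from 41.5 to 65.5 CPM, and Adam15 from 35.3 to 51, highest in HFSC on CPM. The Adam15 difference between ORS and HFSC, 1.31-fold lower (SE 0.09, adjusted p = 0.008), changed sign on TPM, to a log2 change of 0.03, and had adjusted p = 0.0511 with no filter on low counts, 0.825 on TPM with limma and a pseudocount of 1, 0.824 on TPM with limma and a pseudocount of 0.1, 0.067 with HFSC replicate 1 left out, 0.0666 with HFSC replicate 3 left out and 0.0602 with ORS replicate 1 left out. Adam19, a protease known from heart and nerve development, had 3.48, 2.79 and 4.65 CPM for HFSC, 3.1 and 1.71 for ORS, 11.5 and 9.93 for basal HB and 5.15 and 2.57 for suprabasal HB and was 4.46-fold higher (SE 0.40, adjusted p = 0.00389) in basal HB than in ORS. Adam33 was 4.67-fold higher (SE 0.40, adjusted p = 0.00326) in the same comparison. Adam12, known from muscle and fibroblasts, had 4.57, 2.08 and 4.91 CPM in the HFSC libraries, 2.48 and 1.21 in those of ORS, 7.51 and 7.48 in those of basal HB and 16.2 and 4.25 in those of suprabasal HB. Its first suprabasal HB library stood far above the second, and in the same library Col1a1 was 1209 CPM against 396 in the second, and the dermal list summed to 4589 against 2156 CPM. Their part in the Adam12 level was not tested. Its call of 5.57-fold higher (SE 0.64, adjusted p = 0.0187) in suprabasal HB than in ORS was lost under 5 alternatives, with adjusted p = 0.0688 in a fit of these populations alone, 0.0758 on TPM with limma and a pseudocount of 1, 0.0668 on TPM with limma and a pseudocount of 0.1, 0.112 with ORS replicate 2 left out and 0.141 with suprabasal HB replicate 1 left out.

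Adam11, Adam22 and Adam23, which lack a catalytic site, act in cell adhesion, chiefly in the nervous system. All 3 were higher in basal HB than in ORS, where 15.8% of all genes were higher. Each of these calls was lost without ORS replicate 2. Adam22 had 0.907, 0.797 and 2.07 CPM in HFSC, 2.98 and 1.51 CPM in ORS, 6.9 and 6.68 CPM in basal HB and 1.15 and 0.783 CPM in suprabasal HB, and both basal HB libraries exceeded all others. It was 5.35-fold higher (SE 0.43, adjusted p = 0.00181) in basal HB than in HFSC and 6.98-fold lower (SE 0.49, adjusted p = 0.0038) in suprabasal HB than in basal HB. Against ORS the difference was 3.03-fold higher (SE 0.46, adjusted p = 0.0291), with adjusted p = 0.0971 on TPM with limma and a pseudocount of 0.1, 0.147 with ORS replicate 2 left out, 0.118 with basal HB replicate 1 left out and 0.0995 with basal HB replicate 2 left out. Adam11 reached 2.84 and 2.65 CPM in basal HB and at most 1.47 elsewhere. Adam23 had 6.45, 4.39 and 7.23 CPM for HFSC, 2.2 and 1.18 for ORS, 5.03 and 4.55 for basal HB and 4.45 and 2.22 for suprabasal HB, and it was 3.58-fold lower (SE 0.39, adjusted p = 0.00576) in ORS than in HFSC.

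The proteoglycan-cleaving ADAMTS genes, which cut versican and aggrecan, differed in where each was highest. All 7 were tested, and all 7 were called in basal HB against HFSC, 4 higher and 3 lower, where 48.9% of all genes were called. Of these calls, 2 higher and 2 lower ones were kept under all 18 alternatives. Adamts20 (chr15:94270163-94465418, reverse strand), the gene known from the belted coat pattern of mice, had 222, 175 and 174 CPM in the HFSC libraries, 86.8 and 108 in those of ORS, 36.1 and 41 in those of basal HB and 23.7 and 24.2 in those of suprabasal HB. The populations descended in that order without overlap. It was 1.96-fold lower (SE 0.14, adjusted p = 0.000875) in ORS than in HFSC and 2.53-fold lower (SE 0.15, adjusted p = 0.000395) in basal HB than in ORS. From basal HB to suprabasal HB it was 1.61-fold lower (SE 0.15, adjusted p = 0.0108), with adjusted p = 0.0757 with basal HB replicate 2 left out and 0.0512 with suprabasal HB replicate 1 left out.

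Adamts9 (chr6:92772699-92943492, reverse strand) encodes a versican-cleaving protease and had 10.5, 12.5 and 13.6 CPM in HFSC, 58.4 and 79.1 CPM in ORS, 20.7 and 23.9 CPM in basal HB and 11.9 and 5.44 CPM in suprabasal HB. ORS stood alone, with both libraries above 50 CPM and every other library under 25. Adamts9 was 5.65-fold higher (SE 0.28, adjusted p = 0.00025) in ORS than in HFSC, 3.08-fold lower (SE 0.31, adjusted p = 0.00435) in basal HB than in ORS and 7.89-fold lower (SE 0.33, adjusted p = 0.000223) in suprabasal HB than in ORS. Has2, which makes the hyaluronan that versican binds, was also highest in ORS, at 18.1 and 18.5 CPM, and was 3.29-fold higher (SE 0.22, adjusted p = 0.00041) there than in HFSC. Vcan, versican itself, was at 110.1 and 92.3 CPM in ORS and 121, 119 and 181 in HFSC.

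Adamts1 and Adamts5, which lie 53059 bases apart on chromosome 16 on the same strand, had the same order of populations at the extremes. Adamts1 stood at 151, 137 and 177 CPM for HFSC, 82.2 and 79.2 for ORS, 80.7 and 86 for basal HB and 33.4 and 18.3 for suprabasal HB, and Adamts5, aggrecanase 2, at 65.5, 53.7 and 78.2 CPM in the HFSC libraries, 25.7 and 29.8 in those of ORS, 18.3 and 20.7 in those of basal HB and 10.1 and 4.14 in those of suprabasal HB. For both, HFSC was above and suprabasal HB below every other library, while ORS and basal HB overlapped for Adamts1 only. Adamts1 was 3.22-fold lower (SE 0.24, adjusted p = 0.00139) and Adamts5 3.88-fold lower (SE 0.34, adjusted p = 0.00282) in suprabasal HB than in basal HB and ORS respectively. Against HFSC, suprabasal HB was 6.0-fold lower (SE 0.24, adjusted p = 3.30e-05) for Adamts1 and 9.2-fold lower (SE 0.34, adjusted p = 8.08e-05) for Adamts5.

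Adamts15 and Adamts8 lie 20109 bases apart on chromosome 9, on opposite strands and facing away from each other, and both were high in basal HB. Adamts15, a versican-cleaving protease, had 5.08, 3.15 and 7.12 CPM in HFSC, 8.18 and 3.56 CPM in ORS, 53.5 and 40.0 CPM in basal HB and 19.5 and 23.7 CPM in suprabasal HB. It was 7.99-fold higher (SE 0.43, adjusted p = 0.00114) in basal HB and 3.69-fold higher (SE 0.42, adjusted p = 0.00945) in suprabasal HB than in ORS. Suprabasal HB was 2.16-fold lower (SE 0.40, adjusted p = 0.0722) than basal HB, which did not pass the test. Adamts8, at a lower level, had 0.943, 0.31 and 0.872 CPM for HFSC, 0.266 and 0.145 for ORS, 2.97 and 2.93 for basal HB and 0.132 and 0.157 for suprabasal HB, and unlike Adamts15 it was low again in suprabasal HB. It was 14.4-fold higher (SE 0.50, adjusted p = 0.000688) in basal HB than in ORS and 20.2-fold lower (SE 0.54, adjusted p = 0.000658) in suprabasal HB than in basal HB. Adamts4, aggrecanase 1, had 5.48, 2.7 and 6.11 CPM in the HFSC libraries, 3.85 and 3.33 in those of ORS, 14.4 and 11.7 in those of basal HB and 3.98 and 2.1 in those of suprabasal HB and was 4.27-fold lower (SE 0.40, adjusted p = 0.00579) in suprabasal HB than in basal HB.

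Procollagen N-propeptidases trim fibrillar procollagens. Adamts2 had 28.6, 19 and 36.1 CPM in HFSC, 11 and 9.81 CPM in ORS, 34.7 and 29.8 CPM in basal HB and 18.9 and 9.06 CPM in suprabasal HB, with ORS lowest apart from the second suprabasal HB library. It was 3.1-fold higher (SE 0.36, adjusted p = 0.00817) in basal HB than in ORS, with adjusted p = 0.0521 with basal HB replicate 1 left out. Adamts14 reached 6.05 and 5.86 CPM in basal HB, 7.0-fold higher (SE 0.53, adjusted p = 0.00415) than in ORS, and Adamts3 was highest in HFSC at 4.61, 4.39 and 6.29 CPM, with ORS 3.62-fold lower (SE 0.40, adjusted p = 0.00595).

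Of the other 9 ADAMTS genes, 3 were highest in HFSC, against 14.3% of all genes. Adamts10, which binds fibrillin microfibrils, had 72.3, 49.7 and 45.7 CPM for HFSC, 25.1 and 34.3 for ORS, 25.4 and 25.9 for basal HB and 12.5 and 10.0 for suprabasal HB and was 2.28-fold lower (SE 0.24, adjusted p = 0.00646) in suprabasal HB than in basal HB. Adamts6, a relative of Adamts10, had 8.45, 5.36 and 7.92 CPM in the HFSC libraries, 2.8 and 2.13 in those of ORS, 1.0 and 0.996 in those of basal HB and 0.66 and 0.627 in those of suprabasal HB, and ORS was 2.94-fold lower (SE 0.25, adjusted p = 0.0015) than HFSC. Adamts19 had 4.32, 9.66 and 9.63 CPM in HFSC, 1.71 and 0.983 CPM in ORS, 1.0 and 0.387 CPM in basal HB and 1.09 and 0.671 CPM in suprabasal HB. Its first HFSC library lay below the other two HFSC libraries but above every other one, and ORS was 5.85-fold lower (SE 0.52, adjusted p = 0.00485) than HFSC. Adamts7 and Adamts12, which cut cartilage oligomeric matrix protein, were higher in basal HB. Adamts7 had 2.25, 1.42 and 2.36 CPM for HFSC, 1.34 and 0.961 for ORS, 9.04 and 6.32 for basal HB and 6.09 and 4.88 for suprabasal HB and was 6.68-fold higher (SE 0.32, adjusted p = 0.000458) in basal HB than in ORS. Adamts12 had 9.07, 10.6 and 15.8 CPM in the HFSC libraries, 10.8 and 12.7 in those of ORS, 25.7 and 28.8 in those of basal HB and 8.33 and 3.89 in those of suprabasal HB, and suprabasal HB was 4.44-fold lower (SE 0.36, adjusted p = 0.00298) than basal HB. Adamts16 stayed under 1 CPM in every library.

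The ADAMTS-like genes have no protease part, and several bind fibrillin microfibrils. Adamtsl4 had 10.7, 11.9 and 12.6 CPM in HFSC, 3.59 and 3.61 CPM in ORS, 4.86 and 5.28 CPM in basal HB and 5.03 and 4.45 CPM in suprabasal HB, and every HFSC library was above all others. ORS was 3.27-fold lower (SE 0.16, adjusted p = 0.000107) and suprabasal HB 2.48-fold lower (SE 0.16, adjusted p = 0.000158) than HFSC. Adamtsl5 was also highest in HFSC, at 46.1, 32.7 and 41.9 CPM for HFSC, 22.8 and 25.5 for ORS, 27.3 and 24.7 for basal HB and 19.1 and 16.3 for suprabasal HB, with suprabasal HB 2.27-fold lower (SE 0.15, adjusted p = 0.000267). Adamtsl1 had 25.2, 18.6 and 15.6 CPM in the HFSC libraries, 11.6 and 10.8 in those of ORS, 26.7 and 25.6 in those of basal HB and 17.2 and 12.4 in those of suprabasal HB, and basal HB was 2.34-fold higher (SE 0.23, adjusted p = 0.00378) than ORS. Adamtsl2 and Adamtsl3 stayed under 3 CPM in every library.

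Some markers of cells other than keratinocytes moved with the bulb members. Of 9 mural and smooth muscle genes, 7 were higher in basal HB than in ORS, against 15.8% of all genes. All 9 were lower in suprabasal HB than in basal HB, against 14.8% of all genes. Their sum was 2008 to 2742 CPM in HFSC, 781 and 686 CPM in ORS, 1801 and 2038 CPM in basal HB, and 205 and 135 CPM in suprabasal HB, with none at 0. Against HFSC, 6 of the 9 were higher in basal HB and Acta2, Tagln and Cspg4 were lower, so the list did not move one way. For the 14 dermal genes, basal HB had 4 above and 4 below HFSC. The markers named next were chosen after their values were seen. Myh11, smooth muscle myosin, was at 385 and 396 CPM in basal HB and at most 23 in the other 7 libraries, Rgs5, a pericyte gene, at 215 and 261 and at most 31.5, and Corin, a dermal papilla gene, at 85.6 and 78 and at most 18.7. Timp4, Mmp17, Adam22, Adamts4, Adamts8, Adamts12 and Adamts14 had the same 2 libraries highest. The part of these cells in the members' levels was not tested.

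In suprabasal HB the moving list was that of melanocytes, in which 9 of 10 genes were higher than in basal HB and all 10 higher than in ORS. Of all genes, 13.1% and 14.3% were higher in suprabasal HB in these comparisons. Dct, a melanin enzyme, was at 5209 and 5494 CPM there against 489 and 348 in basal HB. Mmp16 and Adam10 were highest in the same libraries, and both shared with Dct a second place in basal HB. The share of pigment cells in the Mmp16 and Adam10 levels was not tested. Immune markers summed to 67.9 to 166 CPM over all 9 libraries.

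**Figure D5:**
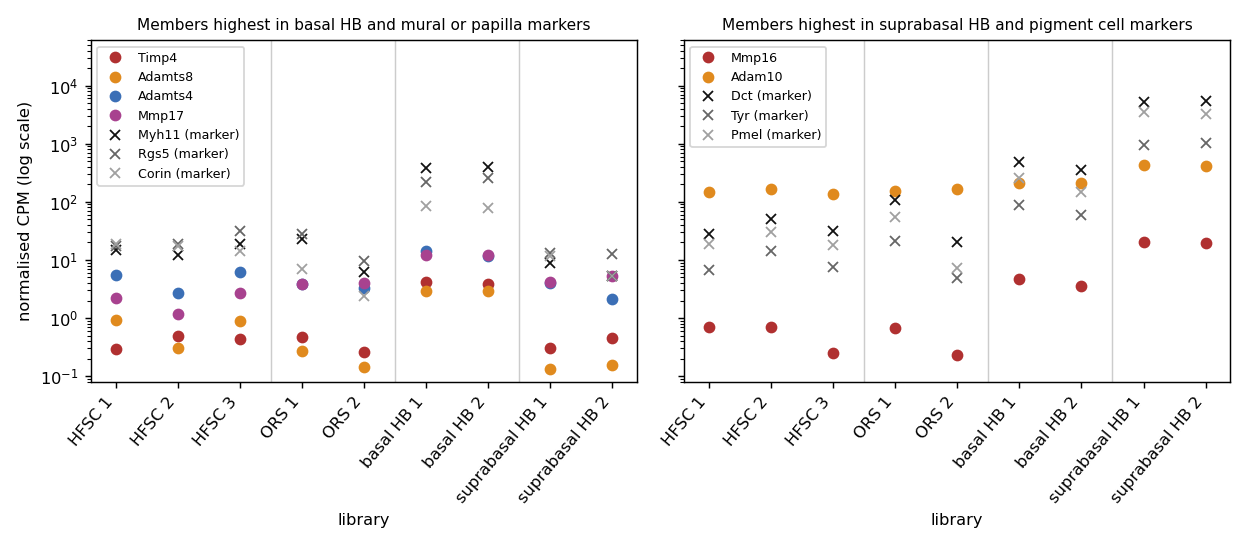
Normalised CPM (log scale) by library of members highest in basal HB (left) and in suprabasal HB (right), beside marker genes. The left markers are Myh11, Rgs5 and Corin, chosen from the mural and dermal lists after their values were seen. In the mural list Acta2, Tagln and Cspg4, not drawn, were lower in basal HB than in HFSC. The right markers are pigment cell genes. Circles are members and crosses markers, and in basal HB Timp4 is at 4.23 and 3.85 CPM where Myh11 is at 385 and 396.

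Genes that work with the proteases were read from lists of the pathway. Of 16 activators and members of the plasminogen system, which convert proenzymes, 1 was higher and 9 were lower in ORS than in HFSC, where 18.1% of all genes were higher and 23.8% lower. Plat, tissue plasminogen activator, was at 149, 145 and 135 CPM in HFSC, 37.5 and 38.7 CPM in ORS, 28.3 and 31.4 CPM in basal HB and 122 and 135 CPM in suprabasal HB, and was 3.75-fold lower (SE 0.09, adjusted p = 1.63e-05) in ORS than in HFSC and 4.31-fold higher (SE 0.10, adjusted p = 1.41e-05) in suprabasal HB than in basal HB. St14, matriptase, was 3.16-fold higher (SE 0.11, adjusted p = 4.38e-05) in suprabasal HB than in basal HB. In that comparison 5 of the 16 were higher and 5 lower, against 13.1% and 14.8% of all genes. Serpine2, an inhibitor of plasminogen activators, was 8.14-fold higher (SE 0.26, adjusted p = 0.000148) in basal HB than in ORS, where 4 were higher and 3 lower, against 15.8% and 14.7% of all genes.

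Of 9 carriers of ADAM10 and ADAM17, the tetraspanins and iRhoms that bring these enzymes to the surface, 3 were higher and 2 lower in suprabasal HB than in basal HB, where 27.9% of all genes were called. Tspan5, an ADAM10 partner linked to Notch cleavage, was at 46.1, 43.6 and 43.7 CPM for HFSC, 34.9 and 37.7 for ORS, 27.3 and 29.3 for basal HB and 78.9 and 76.3 for suprabasal HB. Both suprabasal HB libraries were above all others, and Tspan5 was 2.74-fold higher (SE 0.08, adjusted p = 2.73e-05) there than in basal HB. Tspan10, another ADAM10 partner, was at 64.2 and 47.4 CPM in suprabasal HB and at most 5.03 elsewhere, 71.9-fold higher (SE 0.84, adjusted p = 0.000699) than in ORS. The part of pigment cells in the Tspan10 level was not tested. The 2 lower carriers were Tspan17 and Tspan15. Tspan17 was 2.59-fold lower (SE 0.22, adjusted p = 0.00228) in suprabasal HB than in basal HB. Tspan15 was 1.93-fold lower (SE 0.27, adjusted p = 0.0294), with adjusted p = 0.0556 with a replicate block, a call lost under 4 alternatives. Rhbdf2, an ADAM17 partner, was 2.05-fold lower (SE 0.16, adjusted p = 0.00178) in basal HB than in ORS.

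Among 18 proteins that ADAMs shed, 5 were higher and 5 lower in suprabasal HB than in basal HB, where 13.1% of all genes were higher and 14.8% lower. Notch1, an ADAM10 substrate, was at 383, 274 and 354 CPM in the HFSC libraries, 312 and 404 in those of ORS, 171 and 157 in those of basal HB and 614 and 444 in those of suprabasal HB and was 3.22-fold higher (SE 0.21, adjusted p = 0.000717) in suprabasal HB than in basal HB. Dll1, a Notch ligand, was 2.32-fold lower (SE 0.22, adjusted p = 0.00426) in the same comparison. In ORS against HFSC 8 of the 18 were lower, against 23.8% of all genes, among them Col17a1, a hemidesmosomal collagen shed by ADAMs, at 4.6-fold lower (SE 0.21, adjusted p = 0.000108), and Hbegf, an ADAM17 substrate, at 3.28-fold lower (SE 0.18, adjusted p = 0.000158).

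The list of ADAMTS substrates and matrix partners held 12 genes, of which 10 were tested. In basal HB against ORS 3 were higher and 1 lower, where 30.5% of all genes were called. Has3, a hyaluronan synthase, was 3.62-fold higher (SE 0.13, adjusted p = 1.40e-05) in basal HB than in HFSC, and Fbn2, fibrillin 2, was 7.34-fold higher (SE 0.54, adjusted p = 0.00393) in basal HB than in ORS. Of 17 genes of other metalloprotease families and inhibitors, 13 were tested, and 7 were lower in ORS than in HFSC, against 23.8% of all genes. Ece1, endothelin-converting enzyme, was 2.69-fold lower (SE 0.24, adjusted p = 0.00159) and Tll1, a BMP1-like procollagen protease, 2.97-fold lower (SE 0.26, adjusted p = 0.00152). Thsd4, a protein of the ADAMTS-like group, was 11.2-fold higher (SE 0.21, adjusted p = 5.12e-05) in basal HB than in ORS, and Bmp1, the procollagen C-proteinase, was 2.62-fold lower (SE 0.19, adjusted p = 0.000964) in suprabasal HB than in basal HB.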

How the data were processed

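RNA from 9 sorted libraries of mouse back skin (HFSC n = 3, ORS, basal HB and suprabasal HB n = 2 each) was read from 1 deposited gene table per library. The tables hold RSEM expected counts, TPM and FPKM, per the file headers, and the submitters' processing notes name Bowtie2 2.2.9, RSEM 1.2.30 and mm10. The deposited expected counts are the authors' estimates of reads per gene, and the deposited TPM values are scaled by transcript length and to a constant sum per library. The annotation and the use of strand in counting are not given in the sources used here. The 9 FPKM columns, 1 per library, were not used, and a table of the whole series was not used because some of its column names match no sample's label.

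Expected counts were rounded to whole numbers. Genes were filtered with filterByExpr, scaled by TMM (factors 0.900 to 1.13) and fitted in edgeR 4.0.16 (R 4.3.3) with 1 mean per population over all 9 libraries, which left 5 residual degrees of freedom. All 6 pairs of populations were compared with the 2-sided quasi-likelihood F test and Benjamini-Hochberg adjustment over 20491 genes, with a threshold of 0.05. The SE of a log2 change was taken from its size and the F statistic (the change divided by the root of F). The procedure was also run on simulated counts in which most genes had equal means in all populations, unlike these data. No result here rests on that run. Totals of 25098237 to 88596741 counts per library set the precision, and the floor is 3 counts.

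Members and lists were chosen with earlier results of these data known. Named members had a mean of at least 5 CPM in a population and a called change of at least 2-fold, up to 30, plus Timp1 to Timp4, Reck, Mmp14, Adam10 and Adam17, 32 in all. Other members are given with single values or calls chosen after their values were seen. In each list of partner genes, the named genes come from the 2 largest changes in each direction at 5 CPM or more. The 18 alternatives were DESeq2 size factors, upper-quartile scaling, no filter, a filter of 50 counts in 2 libraries, DESeq2 1.42.0, a fit of each pair alone, limma 3.58.1 on log2(TPM + 1) and log2(TPM + 0.1), a replicate block, and leaving out each of the 9 libraries. Promoter sequences are from RefSeq (GRCm38.p6), in which 54 members matched, 35 of them tested. Gene positions are from GENCODE M21 on the same build. Figures were drawn with matplotlib 3.10.9.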

Additional observations from a re-analysis of the deposited data

How the results depend on the processing

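Of 180 calls of a member in a comparison, 97 kept their direction and stayed under the threshold in all 18 alternatives, and 83 were lost under at least 1. Of 96 calls of named partner genes, 72 were kept. On TPM with pseudocounts of 1 and 0.1, the log2 change turned to 0.032 and 0.033 for Adam15 in ORS against HFSC, to 0.024 and 0.027 for Mmp15 and to 0.161 and 0.165 for Adam17, both in basal HB against HFSC. On TPM the number of members called was 18 in ORS against HFSC with a pseudocount of 0.1, where 42.4% of all genes were called. It was 20 in suprabasal HB against HFSC with a pseudocount of 1, where 49.1% of all genes were called. The members highest in HFSC were 9 on TPM with a pseudocount of 1 and 8 at 0.1. The share of all genes highest in HFSC was not computed on TPM. Leaving out 1 library gave 18 to 30 members called in ORS against HFSC, 18 to 32 in basal HB against ORS, 29 to 39 in basal HB against HFSC, 14 to 33 in suprabasal HB against basal HB, 15 to 23 in suprabasal HB against ORS and 25 to 32 in suprabasal HB against HFSC. It gave 10 to 14 members highest in HFSC, 3 to 13 highest in basal HB and 5 to 10 lowest in suprabasal HB. Where leaving out a library left a population with 1 library, that library is assumed to vary like the others. In these comparisons the share of all genes called also changed with the library left out. The cause of these changes was not tested. The deviations of same-numbered replicates correlated across genes at Pearson r = −0.143 (HFSC with ORS) to 0.245 (basal HB with suprabasal HB), and since not every pair of populations was above 0.1, the numbers are not taken as pairs. With a replicate block, 28, 28, 37, 29, 20 and 28 members were called, in the order ORS against HFSC, basal HB against ORS, basal HB against HFSC, suprabasal HB against basal HB, against ORS and against HFSC. In the same order 36%, 28.7%, 43.7%, 25.4%, 26.9% and 46.4% of all genes were called. HFSC was the shallowest population, and members near the floor of 0.1 to 0.12 CPM there cannot be ranked.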
